A study of Mus musculus with 4 samples.

Results

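The R-spondin receptors Lgr4, Lgr5 and Lgr6, the 4 R-spondins Rspo1 to Rspo4, the membrane ubiquitin ligases Znrf3 and Rnf43, and Tspan8, a tetraspanin gene on the same chromosome as Lgr5, were followed in mouse primary osteoblasts. Members were found by gene name among the non-control probes, which gave 12 probes for 10 genes, of 55681 probes and 34844 gene names on the array. The set was chosen by the large measured BMP2 differences of Lgr5, Lgr6 and Tspan8, so BMP2 differences of its members are descriptions and carry no test. The cells were kept in 10% serum and treated for 72 h with BMP2 (200 ng/ml) and LOXL2 (4 µg/ml) together, with BMP2 (200 ng/ml), with LOXL2 (4 µg/ml), or with neither protein. BMP2 is a growth factor of bone and cartilage formation, LOXL2 is an extracellular enzyme that joins collagen chains, and the study looked for regulators of osteoblast differentiation under BMP2. Each treatment was measured on 1 single-colour Agilent array. The labels call the cells osteoblasts on both arrays with BMP2 and pre-osteoblasts on both without it, and give no mouse strain, age or number of animals.

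R-spondins are secreted proteins that strengthen Wnt signalling. They bind a receptor of the Lgr4, Lgr5 and Lgr6 family together with Znrf3 or Rnf43, ligases that otherwise remove Frizzled and Lrp6 receptors from the cell surface, and thereby leave more Wnt receptor in place. Lgr5 marks stem cells in the intestine and the hair follicle, Lgr6 marks stem cells in skin, and Wnt signalling through Lrp5 and Lrp6 promotes bone formation. Tetraspanins such as Tspan8 are small proteins with several membrane spans that organise other membrane proteins.

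Probes of 60 bases report each gene, and where a probe lies decides which transcripts it can see. The first 30 bases of the 5 probes of Lgr5, Lgr6 and Tspan8 are shown 5′ to 3′ with the probe's place on mm9. They are shown because the paired probes of Lgr5 and of Lgr6 gave different readings. Exon and untranslated region annotation of mm9 was not used here.
Lgr5 probe of NM_010195, chr10:114887403-114887462, minus strand: catgtaaatacgtagtgcttgtaaatagat
Lgr5 probe of ENSMUST00000105272, chr10:114900686-114900745, minus strand: acctctagtgcttatatagaaacttgtgtg
Lgr6 probe of AK040883, chr1:136880538-136880597, minus strand: gtctctgttctacatatttggatctgacaa
Lgr6 probe of NM_001033409, chr1:136883782-136883841, minus strand: tggagaagagctcctgcgactccacccaag
Tspan8 probe of NM_146010, chr10:115286563-115286622, plus strand: gcagtctacagatatcttcacaggtattca

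The arrays were alike in depth, with 60.4% to 62.2% of non-control spots well above background and a 75th percentile of intensity between 710.5 and 742.9. With outlier spots left out, the lowest intensity well above background was 12.9 to 14.6 per array. Within an array, log2 signals of probes with 10 spots had a median SD of 0.288 below an intensity of 30, 0.113 from 30 to 300 and 0.0550 above 300. Each member probe was printed on 1 spot. These values cover spot error only, since no treatment was repeated and the spread between cultures was not measured.

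Of the 12 member probes, 7 were well above background on all 4 arrays, 2 on 2 arrays, 1 on 1 array and 2 on none. The genes measured on all 4 arrays were Lgr4, Lgr5, Rspo1, Rspo2, Rspo3, Znrf3 and Rnf43. Lgr6 was measured only on arrays with BMP2 and Tspan8 only on arrays without it. Rspo4 was below background throughout. Intensities are given as the scanner software reported them, and differences are on the log2 scale after each array was set to its 75th percentile.

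**Figure D1:**
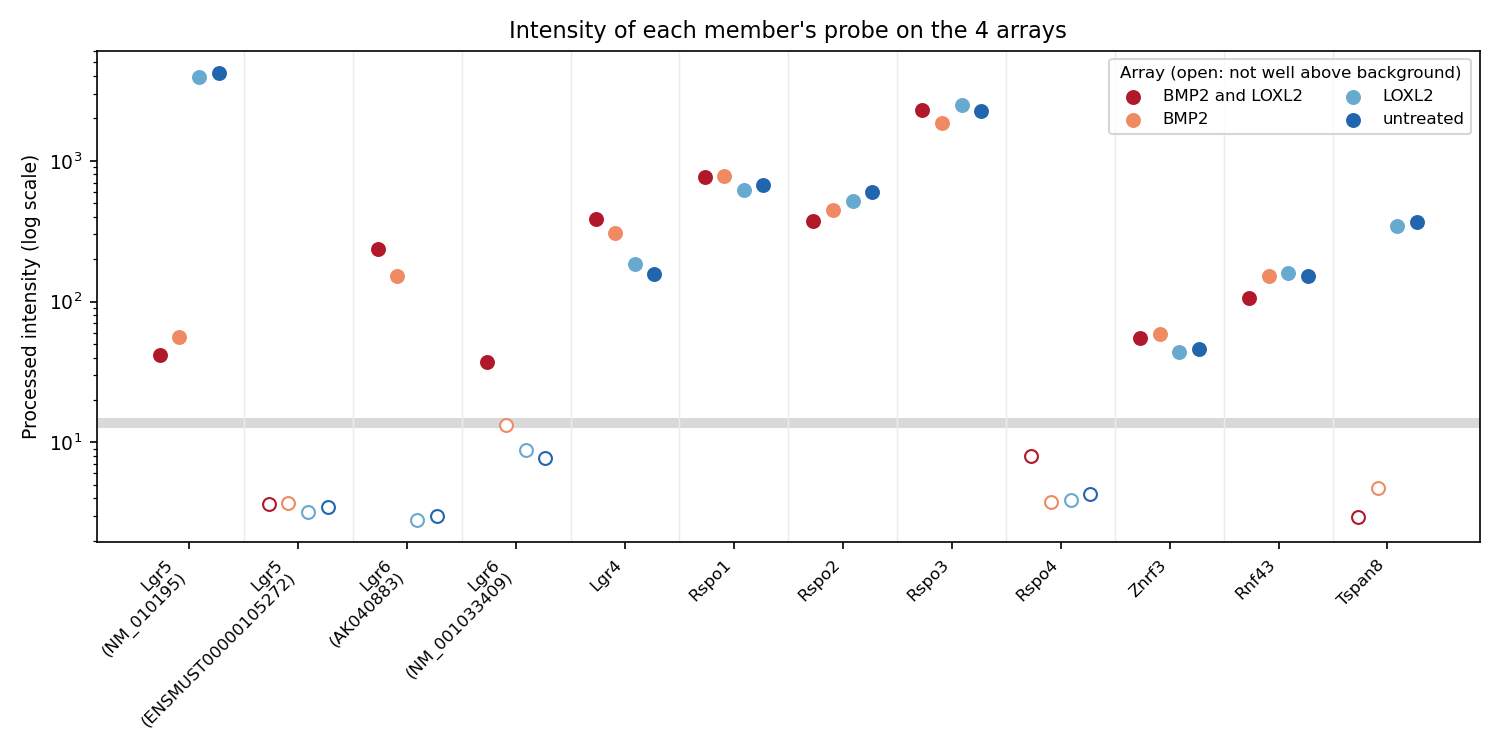
Intensity of each of the 12 member probes (log axis, scanner units) on the 4 arrays, with 1 point per array, filled where the probe was well above background and open where it was not. The Lgr5 probe of NM_010195 and the Tspan8 probe are low on both arrays with BMP2, the Lgr6 probe of AK040883 is high on both, and the measured ligand and ligase probes vary less.

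Among the receptors, the Lgr5 probe of NM_010195 read 42.0 on the array with both proteins, 56.3 with BMP2, 3923 with LOXL2 and 4197 on the untreated array. Both arrays with BMP2 lay far below both without it, though still above background. The difference was -6.58 between the arrays with LOXL2, a 95.8-fold lower level, and -6.25 between those without LOXL2, a 76.1-fold lower level. By comparison, the median absolute difference over the 24055 genes tested was 0.217 and 0.226 in the same pairs, and 6.69% and 6.74% of genes differed at least 2-fold. In these bulk samples, fewer cells of a type and less RNA per cell cannot be told apart.

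The other Lgr5 probe, from an Ensembl transcript, lies 13.3 kb away on the same strand. It read 3.65 with both proteins, 3.67 with BMP2, 3.21 with LOXL2 and 3.46 untreated, below background on all 4 arrays. It gave no Lgr5 level on arrays where the probe of NM_010195 was bright, so the Lgr5 difference rests on 1 probe.

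Lgr6 ran the other way. Its probe of AK040883 read 235 with both proteins and 151 with BMP2, against 2.80 with LOXL2 and 3.01 untreated. Both arrays with BMP2 were above background and neither array without it was. Set against the lowest intensity above background, Lgr6 was at least 17.8-fold higher with BMP2 between the arrays with LOXL2 and at least 10.6-fold higher between those without. The second Lgr6 probe, of NM_001033409 and 3.2 kb away, read 37.2 with both proteins, 13.3 with BMP2, 8.83 with LOXL2 and 7.77 untreated. It was above background only on the array with both proteins, where it was at least 2.82-fold higher than with LOXL2. Both Lgr6 probes were highest on that array, and only the probe of AK040883 measured Lgr6 with BMP2 in the absence of LOXL2.

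Lgr4, the most widely expressed receptor of the 3, was read by a probe at chr2:109853567-109853626 on the plus strand. It read 388 with both proteins, 307 with BMP2, 186 with LOXL2 and 156 untreated. Both arrays with BMP2 exceeded both without it, by 1.02 (2.03-fold) between the arrays with LOXL2 and by 0.95 (1.93-fold) between those without. Each Lgr gene therefore had its own pattern, with Lgr5 lower, Lgr6 detected only with BMP2, and Lgr4 near 2-fold higher. Ordered by the fitted BMP2 difference among 24055 genes, Lgr5 had the second largest fall, Lgr6 the second highest rise and Lgr4 the rise of rank 661. Because Lgr6 was below background on one side, its rank rests on values without a measured level there.

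Tspan8 had a single probe, 399.2 kb from the Lgr5 probe and on the opposite strand. It read 2.93 with both proteins and 4.75 with BMP2, below background, against 341 with LOXL2 and 365 untreated. It was at least 24.0-fold lower with BMP2 between the arrays with LOXL2 and at least 25.5-fold lower between those without. Its fitted fall had rank 1, again with one side below background. Tspan8 and Lgr5 were thus bright on the same 2 arrays and dim on the same 2.

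The ligands differed less than the genes that the set was chosen by. Rspo1, read at chr4:124686270-124686329 on the plus strand, had 766 with both proteins, 774 with BMP2, 617 with LOXL2 and 668 untreated, and differed with BMP2 by 0.27 with LOXL2 present and by 0.18 without. Rspo2, read at chr15:42852727-42852786 on the minus strand, had 375 with both proteins, 446 with BMP2, 521 with LOXL2 and 602 untreated. Its lower level with BMP2 came to -0.51 with LOXL2 present and -0.46 without, and every array with BMP2 was below every array without it. Rspo3, read at chr10:29172930-29172989 on the minus strand, had 2302 with both proteins, 1867 with BMP2, 2494 with LOXL2 and 2273 untreated, so that the array with both proteins lay above the untreated one. Its BMP2 differences were -0.15 with LOXL2 present and -0.31 without. Rspo4, read at chr2:151700345-151700404 on the plus strand, had 7.97 with both proteins, 3.79 with BMP2, 3.87 with LOXL2 and 4.32 untreated, below background on each. Within each pair of arrays matched for LOXL2, the 3 measured R-spondins differed by less than 1.5-fold with BMP2. The receptor gene Lgr4 differed 2.03-fold with LOXL2 present and 1.93-fold without. The larger differences of Lgr5 and Lgr6 are those that the set was chosen by, so their contrast with the ligands is no result.

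Of the ligases that R-spondins act on, Znrf3 was read at chr11:5180918-5180977 on the minus strand. It had 55.3 with both proteins, 58.6 with BMP2, 43.4 with LOXL2 and 46.2 untreated, with BMP2 differences of 0.31 in both pairs. Rnf43, read at chr11:87548958-87549017 on the plus strand, had 106 with both proteins, 151 with BMP2, 161 with LOXL2 and 151 untreated. The array with both proteins was the low one for Rnf43, and the other 3 were close together. Its BMP2 difference was -0.64 with LOXL2 present and -0.03 without.

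**Figure D2:**
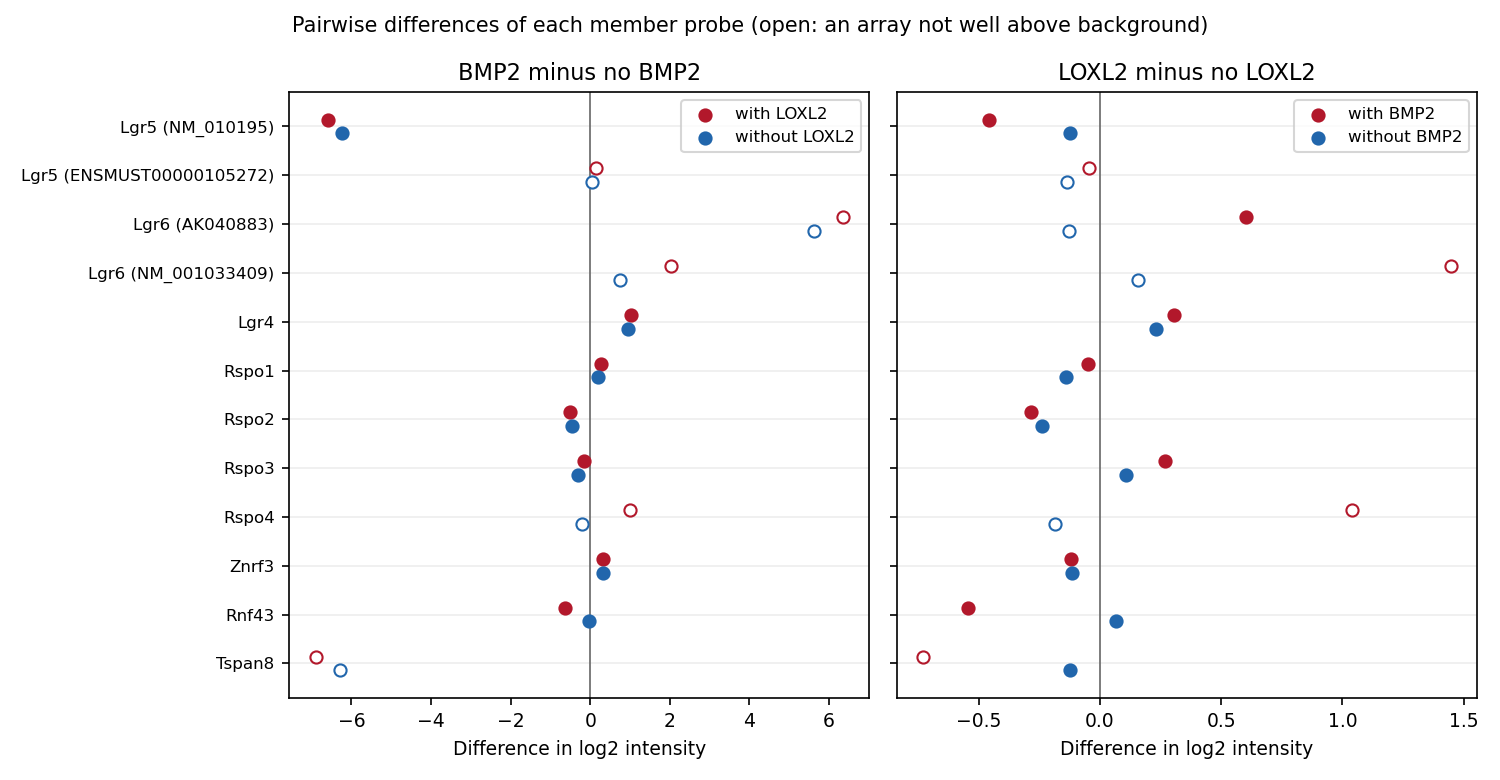
Differences in log2 intensity for each of the 12 member probes, with the BMP2 differences in one panel and the LOXL2 differences in the other, 1 point for each pair of arrays, open where a side was below background. The probe of NM_010195 for Lgr5 lies at -6.25 and -6.58 in the BMP2 panel, while the measured ligands and ligases lie between -0.64 and 0.31.

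The effect of LOXL2 played no part in choosing the genes, so it was tested with limma in a model with both proteins, with p-values adjusted over all 24055 genes tested. The 9 members with a gene in the fit were those other than Rspo4. Of these 9, 0 were called at an adjusted p under 0.05, as were 0% of all genes, and 2 members had an unadjusted p under 0.05, with 1486 of all genes doing so. The limma fit with trend and robust settings called 14 genes with LOXL2, of which 0 were members. Adjusted p for members ran from 0.789 to 0.863. For Lgr6 and Tspan8, each above background on only 2 arrays, the test rests in part on signals with no measured level. The test rests on 1 residual degree of freedom, the departure of the arrays from additive effects of BMP2 and LOXL2. Its SE and p-values therefore do not measure the spread between cultures.

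Lgr4 had the lowest adjusted p with LOXL2, shared with Rspo2. With LOXL2, Lgr4 was higher in both pairs, by 0.30 with BMP2 present and by 0.23 without, a fitted difference of 0.27 ± 0.06 (SE, limma adjusted p = 0.789). Rspo2 was lower in both pairs, by -0.28 with BMP2 present and -0.24 without, a fitted difference of -0.26 ± 0.05 (limma adjusted p = 0.789). The median absolute LOXL2 difference over all genes was 0.0778 with BMP2 present and 0.0900 without. Lgr5 differed by -0.46 with BMP2 present and -0.12 without (fitted -0.29 ± 0.11, limma adjusted p = 0.792). For Lgr6 and Tspan8, only 1 pair was measured above background. Lgr6 differed by 0.60 with BMP2 present, a 1.52-fold higher level on 1 spot, and Tspan8 by -0.12 without BMP2. The fits of Lgr6 and Tspan8 (limma adjusted p = 0.863 and 0.792) also average in a pair with no measured level. Their fitted differences are therefore not given. No LOXL2 difference of Rspo1, Rspo3, Znrf3 or Rnf43 passed the test either, with fitted values of -0.10, 0.19, -0.12 and -0.24.

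Genes were then counted in 7 lists that hold no member. The lists cover Wnt targets, receptors and transducers, ligands, secreted inhibitors, intestinal stem cell genes, other LGR family genes and other tetraspanins. The lists were drawn up with earlier results of these data known. Of 113 list genes tested, 20 rose with BMP2 and 20 fell (limma, adjusted p under 0.05), 17.7% each, beside 10.3% and 9.98% of all 24055 genes. Tetraspanins made up 27 of the 113, with 9 of the rises and 2 of the falls. The median difference was 0.03 over the lists and 0.02 over all genes, and 0 list genes were called with LOXL2. As in the LOXL2 test, SE and p-values of the BMP2 fits do not measure the spread between cultures.

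**Figure D3:**
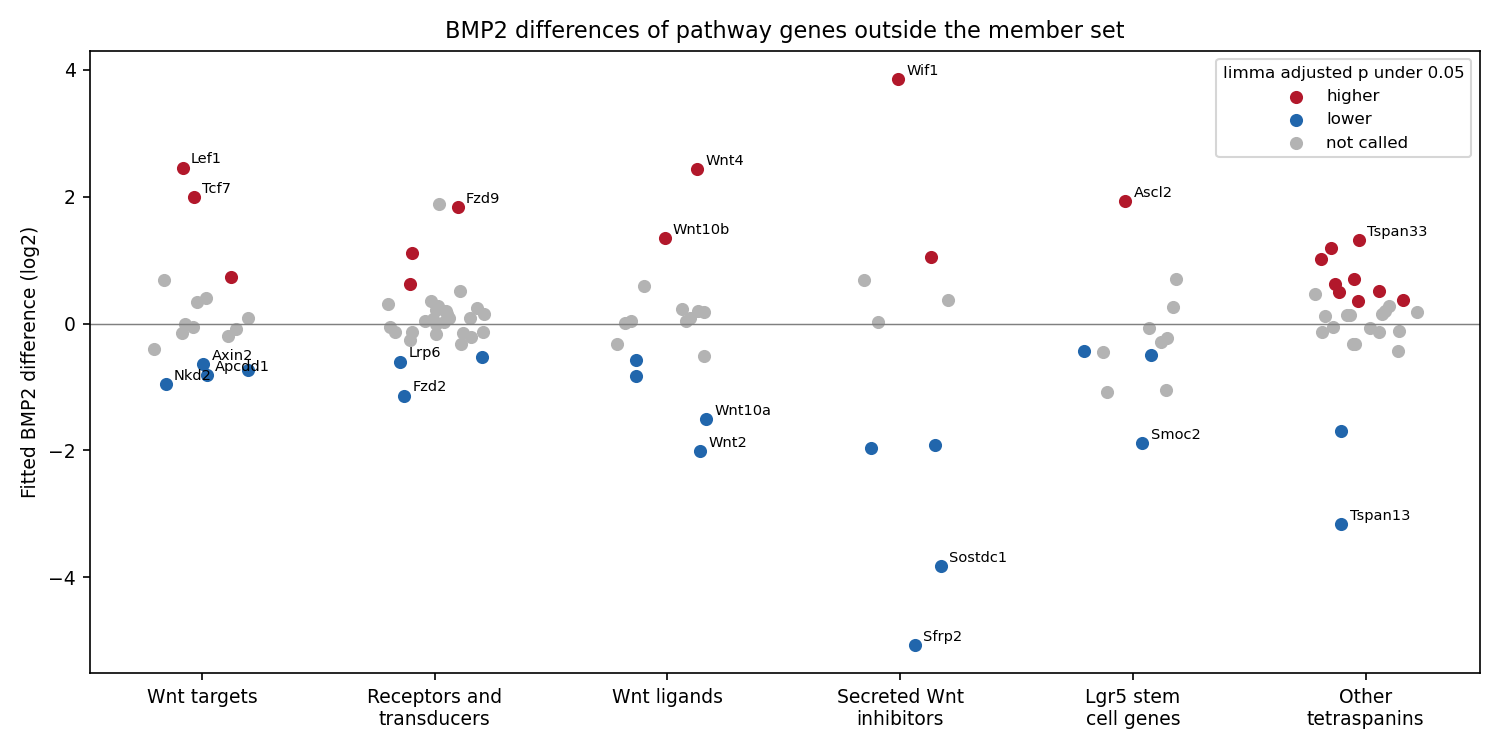
Fitted BMP2 difference (log2) of each tested gene in the lists with more than 1 tested gene, 1 point per gene. Colour shows whether a gene was called higher, called lower or not called. The list of other LGR family genes, with 1 tested gene, is not drawn. Lists with more than 1 tested gene hold points on both sides of 0, and the secreted inhibitors hold the extremes, Wif1 at 3.86 and Sfrp2 at -5.07.

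Transcriptional targets of Wnt signalling moved both ways. Of 17 tested, 3 rose and 4 fell, with a median of -0.06. Lef1, a DNA-binding partner of beta-catenin, read 502 with both proteins, 449 with BMP2, 89.9 with LOXL2 and 79.0 untreated, and rose by 2.46 ± 0.05 (limma adjusted p = 0.0206). Tcf7, another such partner, rose by 1.99 ± 0.08, with 2.45 on its second probe. Among feedback inhibitors of the pathway, Notum, named after its value was seen, differed by 0.09 and was not called (limma adjusted p = 0.303). Axin2, a scaffold of the complex that degrades beta-catenin, read 340 with both proteins, 316 with BMP2, 518 with LOXL2 and 481 untreated, and fell by 0.64 (SE 0.05, limma adjusted p = 0.0276), with -0.46 on its second probe. Nkd2, an inhibitor of Dishevelled, fell by 0.96, and the membrane inhibitor Apcdd1 fell by 0.81.

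Receptors and transducers of Wnt signals were mostly not called, with 3 of 31 higher and 3 lower and a median of 0.07. Fzd9, a Frizzled receptor, rose by 1.84 ± 0.09 and Fzd5 by 1.11 ± 0.08, though the 2 probes of Fzd5 gave 1.11 and 0.58. Fzd2 fell by 1.14. Of the co-receptors, Lrp6 fell by 0.60 (limma adjusted p = 0.0307), with -0.40 on its second probe. Lrp5 differed by -0.14 (limma adjusted p = 0.173). The Frizzled receptor Fzd4 differed by 0.51 (limma adjusted p = 0.0965).

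Among 16 Wnt ligands tested, 2 rose and 4 fell, with a median of 0.03. Wnt4 read 1184 with both proteins, 715 with BMP2, 176 with LOXL2 and 158 untreated. It rose by 2.43 ± 0.18 (limma adjusted p = 0.0262), with 1.80 on its second probe. Wnt10b, a ligand that favours bone over fat formation, rose by 1.35 ± 0.05. Wnt10a fell by 1.51, and Wnt2, below background on both arrays with BMP2, was at least 3.64-fold lower. The call of Wnt2 thus rests in part on signals with no measured level. Of 9 secreted inhibitors, 2 rose and 4 fell, with a median of 0.03. Wif1, which binds Wnt proteins outside the cell, rose by 3.86 and the Frizzled-related protein Sfrp4 by 1.05, while Sfrp2 fell by 5.07. Sostdc1, which binds BMPs and Lrp receptors, fell by 3.83, with -2.97 on its second probe.

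Genes known to accompany Lgr5 in intestinal stem cells moved both ways. Of 12 tested, 1 rose and 3 fell, with a median of -0.36. Ascl2, a transcription factor of intestinal stem cells, read 258 with both proteins, 194 with BMP2, 61.0 with LOXL2 and 54.0 untreated, and rose by 1.93 ± 0.09 (limma adjusted p = 0.0206). The matricellular protein Smoc2 fell by 1.89 and the RNA-binding protein Msi1 fell by 0.50. Of the other LGR family genes, hormone receptors for relaxins and glycoproteins, 1 of 5 was tested, and that gene, Rxfp1, differed by -0.22 and was not called. Of 27 tetraspanins tested apart from Tspan8, 9 rose and 2 fell, with a median of 0.15. Tspan33 rose by 1.32 and Tspan4 by 1.19, while Tspan13 fell by 3.16 and the uroplakin Upk1b was called lower. Upk1b read 8.07 with both proteins, 3.99 with BMP2, 18.2 with LOXL2 and 16.4 untreated. It was marked above background on 3 of the arrays. Both readings with BMP2 nevertheless lie below 14.6, the lowest intensity of a non-outlier spot so marked on those arrays. Its fitted difference is therefore not given, and its call rests in part on those readings.

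Tspan8 and Lgr5 share a stretch of chromosome 10, so genes around them were listed by probe position on mm9. Within 1 Mb of the Lgr5 probe, members left out, the array held 23 probes, for 13 genes with a symbol and further transcripts. The 11 genes tested there include transcripts without a symbol. Of these 11, 0 rose and 3 fell with BMP2 in limma, beside 10.3% and 9.98% of all genes. The nearest neighbour on the lower side, Zfc3h1, at -17.9 kb, read 1658 with both proteins, 1659 with BMP2, 1588 with LOXL2 and 1374 untreated, and differed by 0.13 ± 0.08 (limma adjusted p = 0.327). On the other side the nearest gene with a symbol, A930009A15Rik at 132 kb, was below background on all arrays. The 3 genes that fell, named after their values were seen, were 4930422I22Rik by 0.71, and the receptor-type phosphatases Ptprr by 0.64 and Ptprb by 1.52. The gene 4930422I22Rik lies between Lgr5 and Tspan8, and the phosphatases lie 824.5 kb and 933.5 kb from Lgr5. A Ptprb probe 869.3 kb away was below background on all arrays. The set was chosen by the differences of Lgr5 and Tspan8, so their contrast with these neighbours is no result.

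Around the Lgr6 probe on chromosome 1, 40 genes, some of them transcripts without a symbol, were tested within 1 Mb. Of these, 4 rose and 4 fell with BMP2, near the 10.3% and 9.98% of all genes. Named after their values were seen, those that rose were Pkp1 by 2.18, Cyb5r1 by 1.17, Fmod by 0.64 and Igfn1. Those that fell were Shisa4 by 0.89, Csrp1 by 0.55, Lmod1 and a transcript without a symbol. Igfn1 and Lmod1 were not above background on all arrays, so their fitted differences are not given. Their calls rest in part on signals with no measured level. The nearest on either side were not called. Ube2t, a ubiquitin-conjugating enzyme at -14.7 kb, read 33.4 with both proteins, 34.6 with BMP2, 39.8 with LOXL2 and 44.2 untreated, and differed by -0.34 (limma adjusted p = 0.0578). Ptprv, a phosphatase gene of osteoblasts 125.6 kb away, differed by 0.22 (limma adjusted p = 0.225).

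**Figure D4:**
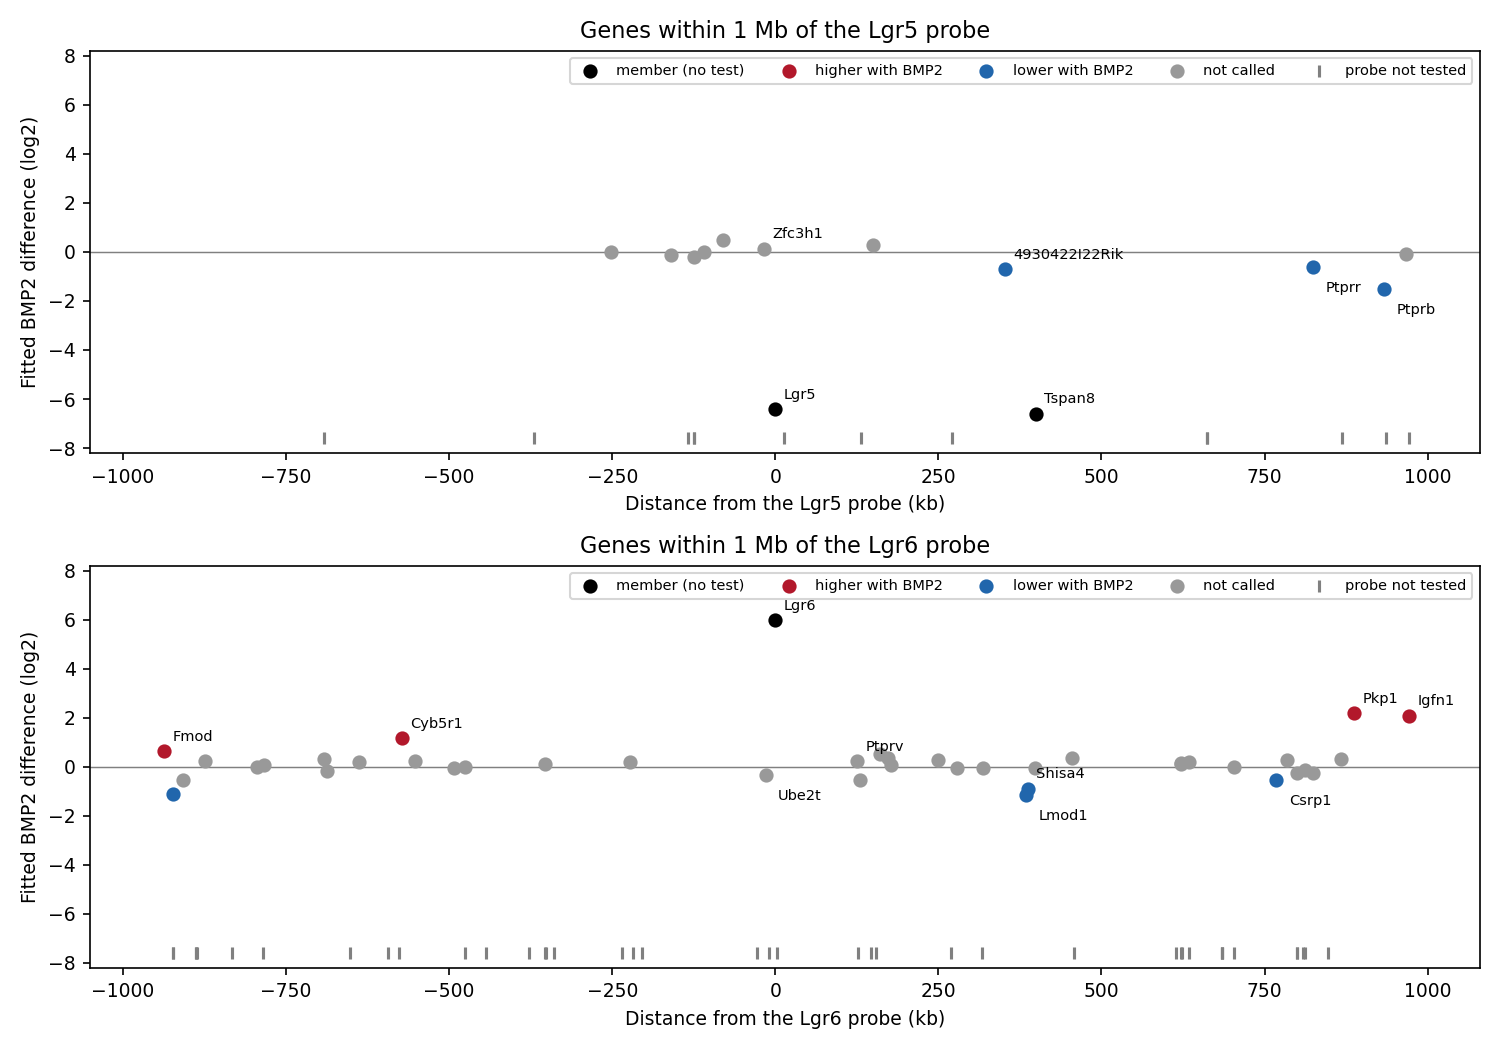
Fitted BMP2 difference (log2) against distance (kb) from the Lgr5 probe in the upper panel and the Lgr6 probe in the lower panel, 1 point per tested gene within 1 Mb. Vertical ticks mark probes that were not tested. Lgr5 and Tspan8 lie at -6.42 and -6.60, and Lgr6 at 5.99, differences that the set was chosen by. Those of Tspan8 and Lgr6 rest on signals below background on 2 arrays and are no measured size.

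RefSeq promoters on GRCm38.p6 were available for 6 of the 10 members in 7 windows of 300 bases, each running from 250 bases before to 50 after a start. Lgr6 and Tspan8 are shown because each was above background on only 2 arrays. The 250 bases before each start are given 5′ to 3′ with CG dinucleotides in capitals.
Lgr6 promoter, chr1:135105277-135105526, minus strand: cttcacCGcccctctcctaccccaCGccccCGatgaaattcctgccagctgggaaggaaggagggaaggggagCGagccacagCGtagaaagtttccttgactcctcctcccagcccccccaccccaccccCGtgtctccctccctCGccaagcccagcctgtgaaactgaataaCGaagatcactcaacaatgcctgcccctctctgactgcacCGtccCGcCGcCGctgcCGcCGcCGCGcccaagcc
Tspan8 promoter, chr10:115817034-115817283, plus strand: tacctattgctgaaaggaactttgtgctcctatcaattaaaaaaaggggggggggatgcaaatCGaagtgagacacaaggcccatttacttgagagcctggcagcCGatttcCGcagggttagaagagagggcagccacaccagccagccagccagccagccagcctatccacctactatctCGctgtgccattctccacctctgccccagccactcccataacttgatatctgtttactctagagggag
The Lgr6 stretch holds 16 CG dinucleotides and the Tspan8 stretch holds 4, and the GC content of the full windows is 67.7% and 51.7%.

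Both strands of the 7 windows were searched for short words bound by factors of the Wnt, Runx and Smad pathways. The TCF/LEF words CTTTGAT and CTTTGAA occurred in 0 of 7 windows, and in 3.73% and 5.14% of 32851 promoters. The Runx word TGTGGT occurred in 0 windows and 16.8% of promoters, and the Smad word GTCTAGAC in 0 windows and 0.213%. The Smad word GGCGCC was found in the Rspo1 window, and in 11.9% of promoters. The Smad word CAGAC was found in the windows of Rspo4, Rspo1 and, for both starts, Rnf43, and in 49.6% of promoters. The Lgr4, Lgr6 and Tspan8 windows held none of these letters, which says nothing about sites elsewhere.

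To place the 3 genes with large differences, genes outside the member set were ranked by the distance between mean-centred log2 values over the 4 arrays. Members were left out, so Lgr5 and Tspan8 were not ranked against each other, and nearest means nearest among non-members. This likeness rests on 1 array per treatment and is a description. Nearest to Lgr5 was Egfl6, a secreted matrix protein, at a distance of 0.77, followed by the angiotensin receptor Agtr1b at 1.23, the urinary protein Mup18 at 1.33, prostaglandin D synthase Ptgds at 1.33 and the retinoic acid binding protein Crabp1 at 1.36. Egfl6 was also nearest to Tspan8, at 0.86, before Agtr1b at 1.38, the neuropeptide Vip at 1.45, Crabp1 at 1.52 and Sfrp2 at 1.54. Tspan8, Egfl6, Agtr1b, Mup18 and Vip were above background on only 2 arrays, so distances that involve them rest in part on signals with no measured level. Egfl6 read 5.69 with both proteins and 11.3 with BMP2, both below background, against 392 with LOXL2 and 467 untreated.

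Nearest to Lgr6 were the cartilage proteoglycan Snorc at 0.44, the hedgehog-responsive transcription factor Gli1 at 0.47, the phosphatase Inpp5j at 0.58, the protease inhibitor Spink5 at 0.63 and the hedgehog ligand Ihh at 0.65. Snorc read 3165 with both proteins, 1360 with BMP2, 32.1 with LOXL2 and 37.6 untreated. Lgr6, Inpp5j and Spink5 were below background on both arrays without BMP2, so these distances also use signals with no measured level.

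Cell type markers were read on the same arrays. Counts called with BMP2 stand beside 10.3% higher and 9.98% lower over all 24055 genes tested. The 9 osteoblast markers had summed intensities of 796882 with both proteins, 816050 with BMP2, 803842 with LOXL2 and 786135 untreated, most of it from the bone collagens Col1a1 and Col1a2. With BMP2, 4 of 8 tested rose and 0 fell (limma), with a median of 1.32. Dmp1, a marker of late osteoblasts and osteocytes, was above background only with both proteins and was not tested. Chondrocyte markers summed to 221924 with both proteins, 137252 with BMP2, 36207 with LOXL2 and 30192 untreated, most of it from Col2a1, and 8 of 8 rose, with a median of 3.95. Both these markers and the 4 osteoblast markers that rose were higher on the arrays where Lgr6 was detected. Their part in the pattern of Lgr6 was not tested. Markers of tendon, fibroblasts and progenitors summed to 111904, 108641, 104924 and 102023 in the same order of arrays, and 1 of 8 rose and 5 fell, with a median of -0.95. Leukocyte markers summed to 6979, 7061, 8382 and 8880, and 0 of 8 rose and 4 fell, with a median of -0.65. Of 4 skeletal muscle markers tested, 0 rose and 1 fell, the skeletal actin Acta1, which read 7059, 7343, 15999 and 16496 and made up nearly all of the summed 7174, 7437, 16100 and 16602. Ckm was below background on all arrays. Epithelial markers, relevant because Lgr5 and Tspan8 are known from epithelia, summed to 290, 284, 294 and 310, with Epcam below background on all 4 arrays, and 0 of 5 tested rose and 1 fell. Of 5 endothelial markers 1 rose and 2 fell, and of 5 adipocyte markers 0 rose and 0 fell, with medians of -0.40 and 0.29. Medians with BMP2 were -0.11 for the muscle and -0.44 for the epithelial markers. The tendon, leukocyte, muscle, epithelial and endothelial groups thus had medians below 0. Their part in the lower levels of Lgr5 and Tspan8 was not tested.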

How the data were processed

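Per the labels, RNA of each culture was amplified, labelled with Cy3 and hybridised to 1 Agilent array. The deposited scanner files give an intensity per spot, which, by the submitters' processing notes, the authors made with Agilent Feature Extraction 10.7.3.1. Local background was subtracted, spatial trends were removed, surrogates replaced dim signals, and positions are on mm9, per the file headers. All arrays shared 1 slide and 1 scan time. Treatment and position on the slide cannot be told apart.

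Intensities were put on the log2 scale and centred on each array's 75th percentile. Outlier spots were dropped, and probes well above background on at least 2 of 4 arrays were kept. The brightest probe stood for a gene, with symbols updated through RefSeq. BMP2 and LOXL2 were fitted together with limma 3.58.1 (R 4.3.3, with package data.table at version 1.17.8), two-sided, with 1 residual and 1.72 prior degrees of freedom, Benjamini-Hochberg adjustment and a threshold of 0.05. The fit was tested on simulated data. Nothing says that the cultures were separate preparations.

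Where every array of one side was dim, it was set to its own signal or the lowest intensity above background, whichever was higher, and the fold is written as a lower bound. Members and lists were chosen with earlier results of these data known. Named genes were all members, the 2 largest called rises and falls per list, Axin2, Nkd2, Lef1, Fzd4, Lrp5, Lrp6 and the nearest neighbours. Added to these were the 5 genes outside the member set most alike to each of Lgr5, Lgr6 and Tspan8. Alternatives changed the background correction, scaling, filter, variance settings, probe choice and source of values.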

Additional observations from a re-analysis of the deposited data

Results flagged for a closer look

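Of the 7 members measured on all 4 arrays, Rnf43 had LOXL2 differences of opposite sign with and without BMP2. The LOXL2 difference was -0.55 with BMP2 present and 0.06 without it, so that they differed by -0.61 on the log2 scale. Each rests on 1 array against 1 and on 1 spot per array, and the difference was not tested because the design leaves no replicate for it.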

How the results depend on the processing

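Under the 8 alternatives, no BMP2 or LOXL2 difference of a member changed sign, and 0 members were called with LOXL2. The lowest adjusted p of a member with LOXL2 was 0.361 over these settings. With normexp background correction, which adds an offset of 50 to every signal, the BMP2 difference was -5.21 for Lgr5, 1.93 for Lgr6, -2.81 for Tspan8, 0.75 for Lgr4 and 0.10 for Znrf3. With quantile normalization that of Znrf3 was 0.37. With probes required above background on all 4 arrays, Lgr6 and Tspan8 were not in the fit.

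Of the list genes, 40 were called with BMP2. That count was 81 with trend and robust settings, 69 with normexp and 0 with no filter on dim probes. Over all genes it was 4888, and 10377, 9102 and 0 under these settings in turn, with 9259 genes at an unadjusted p under 0.05 without the filter. By list, trend and robust settings called 12 Wnt targets against 7, 20 receptors and transducers against 6, 11 ligands against 6, 11 stem cell genes against 4 and 20 tetraspanins against 11. Normexp called 12 targets, 14 receptors and 11 stem cell genes, probes above background on all arrays gave 7 stem cell genes, and testing every probe gave 7 tetraspanins. The cause was not tested. Median centring put 60.6% of called genes on the higher side, against 50.9%. No paired analysis was possible because each treatment has 1 array. Low signals limit Lgr6, Tspan8 and Rspo4, which have no measured level on 2 or more arrays.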
